A study of Mus musculus with 6 samples.

Results

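Axon guidance ligands and receptors were followed in the hippocampus of newborn mice, in *Mov10* Deletion and WT. The 67 genes were chosen by name among protein-coding genes: semaphorins of classes 3 to 7, plexins, neuropilins, Eph receptors, ephrins, Robo receptors, Slits, Dcc and Unc5 receptors, *Ntn1* and *Ntn4*. They are 67 of 52230 genes with a matched transcript, and 66 of them were among the 16745 genes that passed a filter on low counts. The filter asked for at least 0.25 CPM, the counts of a gene scaled to library size, in at least 3 libraries. *Epha1* failed it, with 4, 6 and 0 estimated counts in the *Mov10* Deletion libraries and 1, 0 and 3 in the WT libraries.

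Guidance cues are secreted or membrane-bound proteins that attract or repel growth cones and migrating neurons. Class 3 semaphorins bind neuropilins that signal through plexins, other semaphorins bind plexins directly, ephrins bind Eph receptors at cell contacts, Slits bind Robo receptors, and netrins bind Dcc and Unc5 receptors. In the hippocampus these systems are known for layering entorhinal and mossy fibre axons, for guiding commissural axons, and for shaping dendrites and spines. MOV10 unwinds RNA and acts with AGO2 in silencing by microRNAs.

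RNA was sequenced in 3 *Mov10* Deletion and 3 WT libraries at P0, each made from the hippocampi of several pups. The *Mov10* Deletion mouse carries 1 germline mutant *Mov10* allele and 1 floxed allele (exons 6 and 7). The floxed allele is removed by Cre recombinase expressed from *Emx1*, a gene of the excitatory lineage in cortex and hippocampus. Other cells keep that allele. WT mice were C57BL/6, and the sources used here do not say whether they carried Cre. *Mov10* itself was at 2.45, 2.13 and 2.09 CPM in the *Mov10* Deletion libraries and at 4.81, 4.75 and 4.80 CPM in the WT libraries. Its log2 fold change was -1.11 (SE 0.10, adjusted p = 0.00115, limma-trend).

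The libraries held 71400300 to 86207971 estimated counts. Hippocampal markers were abundant, with *Prox1* at 283 to 405 CPM and *Neurod6* at 367 to 504 CPM over all libraries. Pools differed in sex: *Xist* was at 0.18, 888 and 1.57 CPM in the *Mov10* Deletion libraries and at 182, 251 and 643 CPM in the WT libraries. *Mov10* Deletion replicate 1 stood apart in the summed level of 15 meninges and choroid plexus markers, with 289 CPM against 59.6 and 78.4 CPM in the other *Mov10* Deletion libraries and 100.3 to 116.5 CPM in the WT libraries. In that list 2 genes were called higher and 2 lower. The summed level of 16 markers of pyramidal and granule neurons was 3939 to 4081 CPM in the *Mov10* Deletion libraries and 3599 to 3683 CPM in the WT libraries. Of the 16, 3 were called higher, 8 had positive and 8 negative log2 fold changes, and the median was 0.02. The most abundant, *Zbtb20*, alone was at 1550.0, 1486 and 1771 CPM in *Mov10* Deletion and 1307, 1314 and 1356 CPM in WT. The summed level of 12 astrocyte markers was 1540 to 1626 CPM in the *Mov10* Deletion libraries and 1357 to 1498 CPM in the WT libraries. Of these, 4 were called higher and 1 lower (41.7%, against 24.7% of all genes tested). Their log2 fold changes were positive for 9 and negative for 3, with a median of 0.15. Of 6 erythroid genes tested, 3 were called lower and 0 higher (50%). All 6 had negative log2 fold changes, with a median of -0.33. Of 13 radial glia and intermediate progenitor markers, 2 were called higher and 2 lower (30.8%), with 4 positive and 9 negative log2 fold changes. Of 10 tested markers of thalamus, striatum and other neighbours, 3 were called higher and 0 lower (30%), with 5 log2 fold changes of each sign. The part of sex and cell composition in the results below was not tested. In whole tissue, fewer cells of a type and less RNA per cell cannot be told apart.

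By level, neuropilins and *Epha4* led the 67 genes. Levels between genes are compared in TPM, which correct for transcript length. *Nrp2*, a co-receptor for class 3 semaphorins, averaged 287 ± 28.1 TPM in *Mov10* Deletion and 281 ± 6.88 TPM in WT (SD, n = 3 each). *Epha4*, an Eph receptor that binds both ephrin classes, averaged 273 ± 13.1 TPM in *Mov10* Deletion and 285 ± 2.86 TPM in WT. A mean of 64.2% of its counts in *Mov10* Deletion and 64.0% in WT was assigned to *Epha4-205*. That transcript is annotated for nonsense-mediated decay and not as coding. *Nrp1* averaged 257 ± 5.63 TPM in *Mov10* Deletion and 269.8 ± 11.3 TPM in WT. These 3 genes cannot be ordered beyond the spread between libraries. The next genes were *Efnb3* and *Sema3c*, with means of 158 and 156 TPM over the 6 libraries. Of the 67 genes, 21 lay above 50 TPM and 5 lay below 1 TPM.

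**Figure D1:**
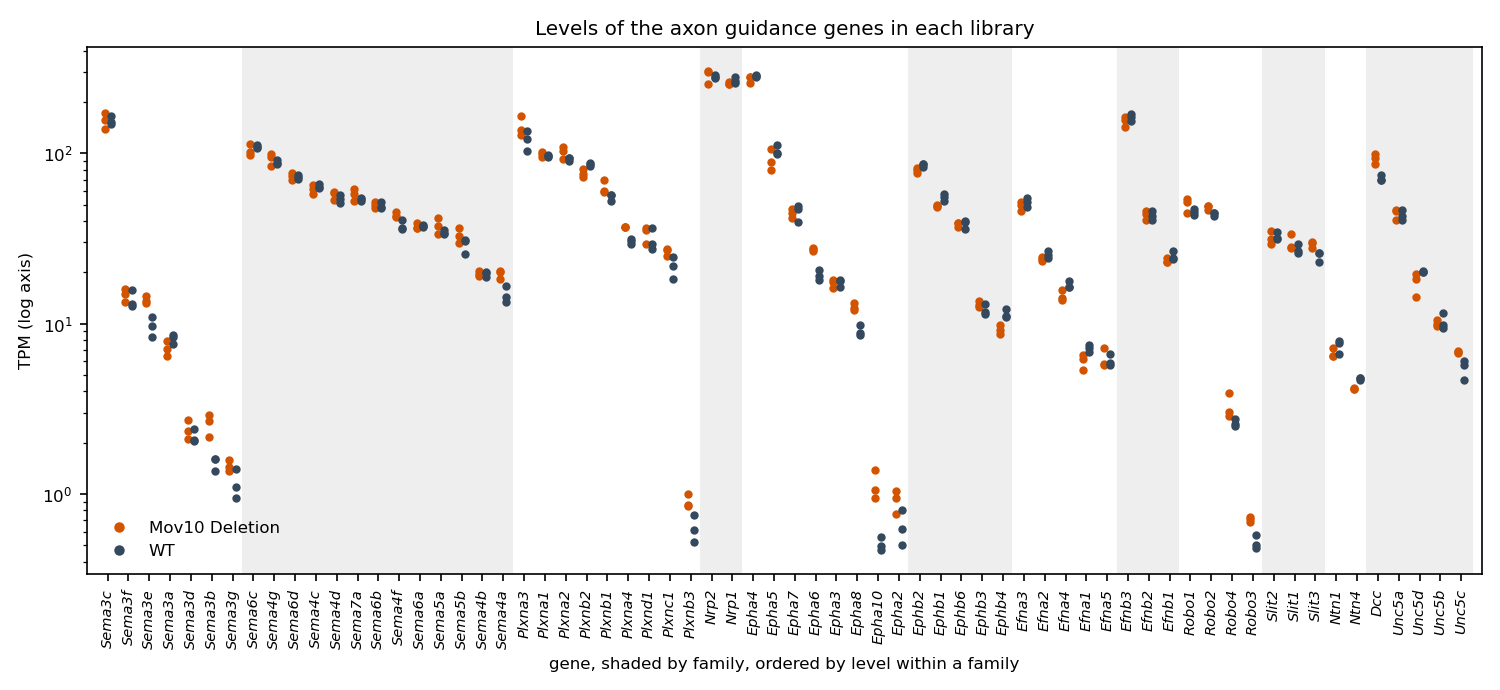
Level of each axon guidance gene (TPM, log axis) in the 3 *Mov10* Deletion libraries (orange, left) and the 3 WT libraries (dark blue, right), with *Epha1* left out for its low level. *Nrp2*, *Nrp1* and *Epha4* lead, near 284, 263 and 279 TPM, and *Plxnb3*, *Epha10*, *Epha2* and *Robo3* lie below 1 TPM in their means.

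The comparison asked which guidance genes differ in steady-state mRNA between *Mov10* Deletion and WT hippocampus. Of 66 genes tested, 18 passed an adjusted p of 0.05 (27.3%), against 24.7% of all genes tested and 26.2% of protein-coding genes tested, so their share lay near the background. Of the 18, 14 were higher and 4 lower in *Mov10* Deletion, where the background was 12.6% called higher and 12.1% called lower. For 29 of the 66 genes (43.9%) the CPM of the groups lay apart, against 41.6% of all genes tested. The median log2 fold change was 0.03 over the 66 genes and 0.006 over all genes tested. Changes were small: the 18 called genes differed by 1.11-fold to 1.54-fold in either direction, with a median of 1.21-fold. Receptors made up 14 of the 18. Among receptors 14 of 33 tested were called (10 higher and 4 lower), and among ligands 4 of 33 (all higher). The difference between ligands and receptors was not tested, and neither were the counts by family given below.

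**Figure D2:**
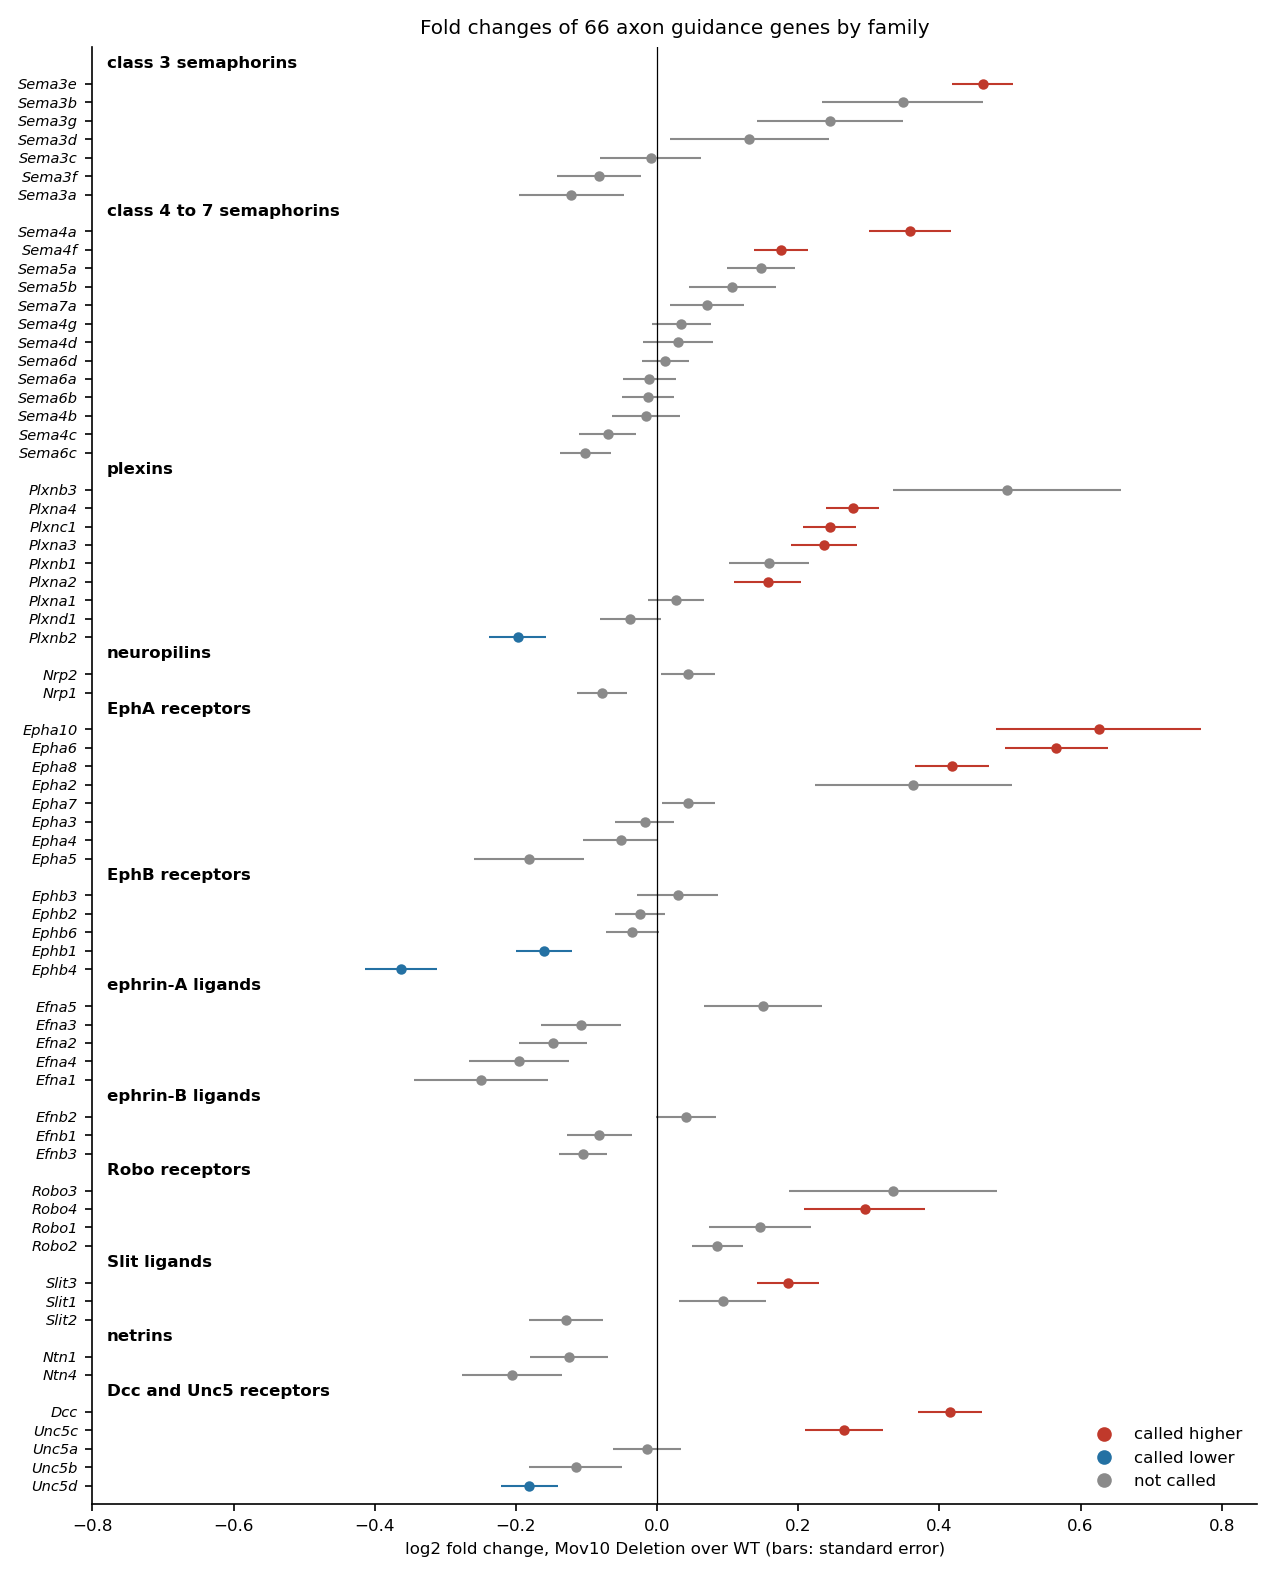
Log2 fold change, *Mov10* Deletion over WT, of the 66 tested genes by family, with bars for the standard error. Red marks the 14 genes called higher, blue the 4 called lower and grey the 48 not called. The called genes run between -0.36 for *Ephb4* and 0.63 for *Epha10*.

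Semaphorins are repellent or attractant ligands. Among the 7 class 3 genes, which encode secreted ligands, *Sema3e* was the only one called (14.3%, against 24.7% of all genes tested). SEMA3E binds plexin D1 directly and guides vessels and forebrain axon tracts. It was at 39.3, 36.6 and 36.3 CPM in the *Mov10* Deletion libraries, against 28.9, 26.1 and 23.3 CPM in the WT libraries. Every *Mov10* Deletion library lay above every WT library. The gene (chr5:14075290-14306719, GRCm39, plus strand) rose 1.38-fold, a log2 fold change of 0.46 (SE 0.04, adjusted p = 0.00128, limma-trend). Its receptor gene *Plxnd1* had 101, 102 and 109 CPM in *Mov10* Deletion and 105, 105 and 118 CPM in WT (adjusted p = 0.559, limma-trend).

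The class 3 gene at the highest level, *Sema3c*, had 379, 348 and 299.9 CPM in *Mov10* Deletion and 328, 361 and 333 CPM in WT. The groups overlapped, and the log2 fold change was -0.01 (SE 0.07). The sign of this value changed under several other settings. The remaining class 3 genes that were not called lay between -0.12 for *Sema3a*, the classical growth cone repellent, and 0.35 for *Sema3b*. *Sema3b* was the other gene of this class whose groups did not overlap, at 2.64, 2.66 and 2.52 CPM in *Mov10* Deletion and 1.96, 2.05 and 2.32 CPM in WT (adjusted p = 0.0601, limma-trend). The median over the class was 0.13.

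Of the 13 genes of classes 4 to 7, 2 rose and 11 were not called (15.4% called, against 24.7% of all genes tested). Their median log2 fold change was 0.03. *Sema4a*, a membrane-bound semaphorin, was at 14.2, 17.5 and 17.4 CPM in the *Mov10* Deletion libraries and at 13.5, 12.5 and 11.4 CPM in the WT libraries. *Mov10* Deletion replicate 1 was close to WT replicate 1, yet the groups did not overlap. The log2 fold change was 0.36 (SE 0.06, adjusted p = 0.006, limma-trend). *Sema4f* was at 82.2, 88.7 and 83.7 CPM in *Mov10* Deletion, against 77.1, 73.5 and 73.3 CPM in WT, a log2 fold change of 0.18 (SE 0.04, adjusted p = 0.0156, limma-trend). *Sema4f* lies 2248 kb from *Emx1*, the locus that carries Cre in the *Mov10* Deletion mouse, and the part of that position was not tested. The gene at the highest level in TPM in these classes, *Sema6c*, was below WT in every *Mov10* Deletion library without passing the test. It was at 98.3, 107 and 108 CPM, against 113, 111 and 113 CPM in WT. Its log2 fold change was -0.10 (SE 0.04, adjusted p = 0.0731, limma-trend).

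Plexins are the signalling receptors for semaphorins. Of the 9, 5 were called (55.6%, against 24.7% of all genes tested): 4 rose and 1 fell. *Plxna4*, which acts with neuropilins in class 3 signalling and binds class 6 semaphorins, was at 241, 249 and 241 CPM in the *Mov10* Deletion libraries, against 198, 207 and 199 CPM in the WT libraries. The groups were tight and well apart. The log2 fold change was 0.28 (SE 0.04, adjusted p = 0.00337, limma-trend). *Plxnc1*, a receptor for the membrane-anchored SEMA7A, was at 82.1, 90.1 and 88.1 CPM in *Mov10* Deletion and 78.0, 72.3 and 61.8 CPM in WT, a log2 fold change of 0.24 (SE 0.04, adjusted p = 0.00467, limma-trend). Its ligand gene *Sema7a* had 105, 97.1 and 88.5 CPM in *Mov10* Deletion and 89.1, 93.8 and 94.3 CPM in WT, with overlapping groups (adjusted p = 0.347, limma-trend).

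*Plxna3*, a receptor for SEMA3F signalling that limits spines and prunes axons in the hippocampus, was at 218, 246 and 256 CPM in *Mov10* Deletion and 214, 205 and 176 CPM in WT. In TPM, though not in CPM, it had the highest mean level of the plexins (132 TPM over all libraries). Its log2 fold change was 0.24 (SE 0.05, adjusted p = 0.0116, limma-trend). *Plxna3* lies on chromosome X, and its lowest WT library was also the WT library with the highest *Xist*. The *Mov10* Deletion library with the highest *Xist*, replicate 2, was at 246 CPM and not the lowest of its group. With a score of sex markers in place of the fitted factors, its log2 fold change was 0.30 and its adjusted p was 0.1004 (limma-trend). In that setting 8.15% of all genes passed, against 24.7% as reported. The part of sex in this result was not tested. *Plxna2*, which is known to govern mossy fibre layering through SEMA6A, was at 546, 522 and 569 CPM in *Mov10* Deletion and 494, 475 and 512 CPM in WT. Its log2 fold change of 0.16 (SE 0.05, adjusted p = 0.0451, limma-trend) lay just past the threshold.

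*Plxnb2*, a class 4 semaphorin receptor of neural progenitors, moved the other way. It was at 235, 232 and 249 CPM in the *Mov10* Deletion libraries and at 270, 274 and 287 CPM in the WT libraries. It fell in every *Mov10* Deletion library relative to every WT library, with a log2 fold change of -0.20 (SE 0.04, adjusted p = 0.0126, limma-trend). *Plxnb3*, the plexin with the largest fold change, was low, at 2.51, 2.30 and 2.94 CPM in *Mov10* Deletion and 1.70, 2.10 and 1.63 CPM in WT. The groups did not overlap, and the log2 fold change of 0.50 (SE 0.16) did not pass (adjusted p = 0.0586, limma-trend). *Plxnb3* passed under 10 of the 19 alternatives run, among them the fit without factors (adjusted p = 0.0387, limma-trend). Neither neuropilin was called. *Nrp1* had 485, 494 and 497 CPM in *Mov10* Deletion and 529, 510 and 511 CPM in WT (adjusted p = 0.138), and *Nrp2* had 876, 1060 and 1040.4 CPM in *Mov10* Deletion and 976, 945 and 992 CPM in WT (adjusted p = 0.426, both limma-trend).

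Eph receptors are tyrosine kinases that take up ephrins on neighbouring cells. Of 8 EphA genes tested, 3 rose and none fell (37.5% called, against 24.7% of all genes tested). The 3 had the largest log2 fold changes of the family. *Epha6* was at 39.9, 41.2 and 36.3 CPM in the *Mov10* Deletion libraries, against 25.03, 28.6 and 25.8 CPM in the WT libraries. The lowest *Mov10* Deletion library was well above the highest WT library. The gene (chr16:59473846-60425894, GRCm39, minus strand) rose 1.48-fold, a log2 fold change of 0.57 (SE 0.07, adjusted p = 0.00272, limma-trend). *Epha8* was at 32.8, 36.9 and 33.1 CPM in *Mov10* Deletion and 26.8, 24.6 and 24.7 CPM in WT, without overlap, a log2 fold change of 0.42 (SE 0.05, adjusted p = 0.00256, limma-trend).

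*Epha10*, whose product lacks kinase activity, was low, at 1.89, 1.92 and 1.86 CPM in *Mov10* Deletion and 1.17, 1.34 and 1.09 CPM in WT. Its log2 fold change was the largest of the 66 genes, 0.63 (SE 0.15, adjusted p = 0.0196, limma-trend). The abundant EphA genes were not called. *Epha4* had 743, 758 and 676 CPM in *Mov10* Deletion and 736, 763 and 766 CPM in WT, a log2 fold change of -0.05 (SE 0.05, adjusted p = 0.501). *Epha5* had 235, 195 and 170 CPM in *Mov10* Deletion and 209, 242 and 222 CPM in WT (adjusted p = 0.124, both limma-trend), and its *Mov10* Deletion libraries spread more widely than its WT libraries.

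Of the 5 EphB genes, 2 fell and none rose (40% called, against 24.7% of all genes tested). *Ephb4*, a receptor known from venous endothelium, was at 23.0, 20.7 and 21.7 CPM in the *Mov10* Deletion libraries and at 28.7, 26.9 and 27.5 CPM in the WT libraries. The groups did not overlap. The log2 fold change was -0.36 (SE 0.05, adjusted p = 0.00362, limma-trend), the lowest of the 66 genes. The summed level of 15 endothelial and pericyte markers was 528 to 620 CPM in the *Mov10* Deletion libraries and 538 to 577 CPM in the WT libraries. Of these markers 2 were called higher and 3 lower (33.3%, against 24.7% of all genes tested). In sign, 4 had positive and 11 negative log2 fold changes, with a median of -0.03. Their part in the result was not tested. *Ephb1*, which is known from retinal axon crossing and from spine formation, was at 114, 119 and 117 CPM in *Mov10* Deletion and 132, 126 and 138 CPM in WT, a log2 fold change of -0.16 (SE 0.04, adjusted p = 0.0242, limma-trend). *Ephb2*, the EphB gene at the highest level and a partner of synaptic glutamate receptors, had 332, 370.0 and 350.4 CPM in *Mov10* Deletion and 362, 350.0 and 364 CPM in WT, with overlapping groups (log2 fold change -0.02, SE 0.04).

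No ephrin gene was called. Ephrin-A ligands are tethered to the membrane by a lipid anchor, and 3 of the 5 lay below WT in every library. Over all genes tested, 3551 of 16745 did so. *Efna1* was at 4.45, 3.78 and 4.24 CPM in *Mov10* Deletion and 4.93, 4.75 and 5.32 CPM in WT, a log2 fold change of -0.25 (SE 0.09, adjusted p = 0.0911, limma-trend). *Efna2* and *Efna4* were the others, with log2 fold changes of -0.15 and -0.20. Summed over the 5 genes, the level was 100.4, 100.5 and 98.2 TPM in *Mov10* Deletion and 110.6, 102.7 and 107.6 TPM in WT, so the sums did not overlap. They were not tested. *Efna3*, the most abundant of them, had 50.4, 53.7 and 48.0 CPM in *Mov10* Deletion and 56.2, 51.9 and 55.8 CPM in WT. Ephrin-B ligands span the membrane and signal in reverse. *Efnb3*, the most abundant ephrin and a midline barrier to corticospinal axons, had 215, 255 and 239.8 CPM in *Mov10* Deletion and 258, 254 and 248 CPM in WT. Its log2 fold change was -0.11 (SE 0.03, adjusted p = 0.0572, limma-trend).

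Dcc is the netrin receptor for attraction, and Unc5 receptors mediate repulsion by netrin. Among the 21 genes above 50 TPM, *Dcc* had the largest log2 fold change. It was at 395, 434 and 443 CPM in the *Mov10* Deletion libraries, against 308, 334 and 320.2 CPM in the WT libraries. All *Mov10* Deletion libraries were above all WT libraries. *Dcc* rose 1.33-fold, a log2 fold change of 0.41 (SE 0.05, adjusted p = 0.00182, limma-trend). *Unc5c* was at 26.6, 26.3 and 24.4 CPM in *Mov10* Deletion and 22.4, 21.4 and 17.9 CPM in WT, a log2 fold change of 0.27 (SE 0.05, adjusted p = 0.0133, limma-trend).

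*Unc5d* was called lower, with a log2 fold change of -0.18 (SE 0.04, adjusted p = 0.0167, limma-trend), although its groups overlapped. It was at 54.1, 75.7 and 67.0 CPM in *Mov10* Deletion and 73.6, 74.5 and 78.8 CPM in WT, and the lowest value was that of the library with high meninges and choroid plexus markers. Without that library the log2 fold change was -0.07 (adjusted p = 0.192), and with the sex score in place of the factors it was -0.03 (adjusted p = 0.801). Without factors it was -0.22 (adjusted p = 0.144, all limma-trend). *Unc5a* and *Unc5b* were not called. Neither netrin gene was called, and both had negative log2 fold changes. *Ntn1* was at 16.8, 15.4 and 15.8 CPM in *Mov10* Deletion and 16.4, 18.3 and 18.4 CPM in WT (log2 fold change -0.12, SE 0.05, adjusted p = 0.133), and *Ntn4* at 7.05, 7.29 and 7.005 CPM in *Mov10* Deletion and 8.02, 8.36 and 8.56 CPM in WT (log2 fold change -0.21, SE 0.07, adjusted p = 0.0700, both limma-trend). Only the *Ntn4* groups did not overlap.

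**Figure D3:**
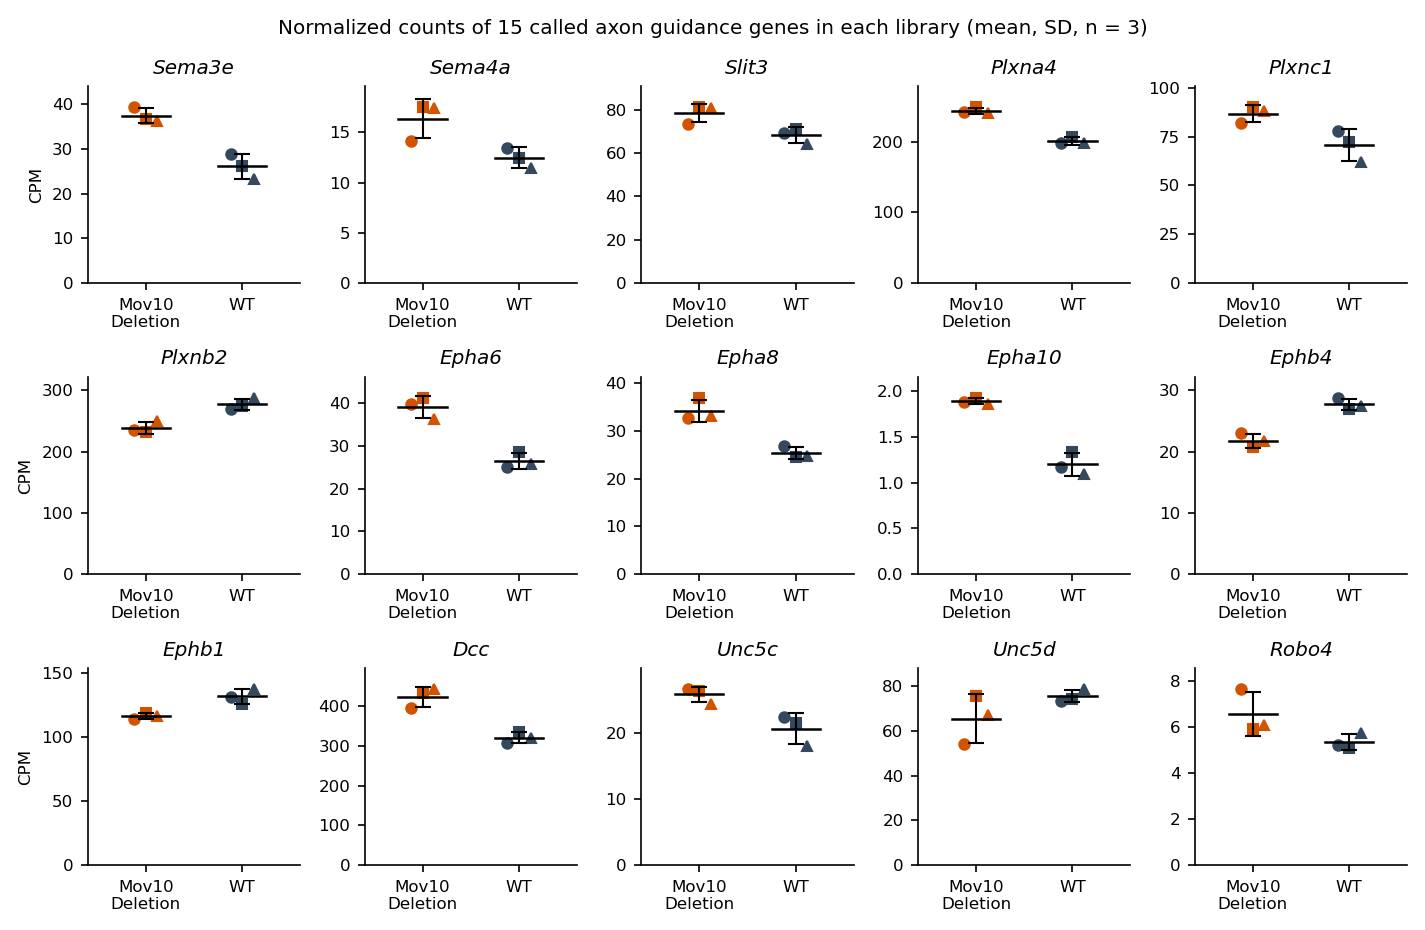
CPM of 15 of the 18 called genes in each library, with *Mov10* Deletion (orange) left of WT (dark blue), a marker shape for each replicate number, and lines for the mean and SD (n = 3 each). Except for *Unc5d*, no panel has a *Mov10* Deletion library within the WT range. *Dcc* lies at 395 to 443 CPM in *Mov10* Deletion and at 308 to 334 CPM in WT.

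Slits repel axons through Robo receptors. Of the 4 Robo genes, 1 was called higher (25% called, against 24.7% of all genes tested). The log2 fold changes of all 4 were positive, between 0.09 and 0.33. Their median of 0.22 lay between 0.15 and 0.30 under the alternatives run. *Robo1*, the most abundant, had 196, 192 and 161 CPM in *Mov10* Deletion and 157, 172 and 171 CPM in WT, with overlapping groups (log2 fold change 0.15, SE 0.07, adjusted p = 0.179, limma-trend). *Robo2* had 111, 118 and 113 CPM in *Mov10* Deletion and 107, 109 and 108 CPM in WT, without overlap (adjusted p = 0.119, limma-trend). Summed over the 4 genes, the level was 105.1, 104.1 and 97.2 TPM in *Mov10* Deletion and 91.2, 94.4 and 91.5 TPM in WT. These sums are a description of the family and were not tested.

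*Robo4*, known from vascular endothelium, was the Robo gene called, at 7.66, 5.93 and 6.08 CPM in *Mov10* Deletion and 5.23, 5.08 and 5.76 CPM in WT (log2 fold change 0.29, SE 0.09, adjusted p = 0.0423, limma-trend). Its highest value was in the *Mov10* Deletion library with high meninges and choroid plexus markers, which also had the highest sum of endothelial and pericyte markers. Without that library the log2 fold change was 0.20 (adjusted p = 0.146), and with the sex score in place of the factors it was 0.17 (adjusted p = 0.431, both limma-trend). *Robo3*, which lowers Slit responses in commissural axons, had 1.68, 1.47 and 1.34 CPM in *Mov10* Deletion and 1.28, 1.14 and 0.90 CPM in WT, the largest fold change of the family (log2 fold change 0.33, SE 0.15, adjusted p = 0.133, limma-trend).

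Among the ligands, *Slit3* rose and the other Slits were not called. *Slit3* was at 73.6, 81.2 and 80.6 CPM in the *Mov10* Deletion libraries, against 69.3, 71.2 and 64.3 CPM in the WT libraries, without overlap. The log2 fold change was 0.19 (SE 0.04, adjusted p = 0.0210, limma-trend). *Slit2* had 97.0, 104 and 106 CPM in *Mov10* Deletion and 108, 119 and 109 CPM in WT, all below WT (log2 fold change -0.13, SE 0.05, adjusted p = 0.107, limma-trend). *Slit1* had a log2 fold change of 0.09.

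The introns of *Slit2* and *Slit3* hold the hairpins of the microRNA miR-218, at chr5:48381284-48381393 and chr11:35507643-35507752 (GRCm39), and no exon of either host overlaps them. miR-218 is known to act on Robo messages, and MOV10 takes part in microRNA silencing, so the sequence and its matches in these genes are shown here. Poly(A) libraries do not measure mature microRNAs, so the level of miR-218 is unknown. The mature 5p sequence from RefSeq (GRCm38.p6, chr5:48223966-48223986 and chr11:35616840-35616860, plus strand) is the same from both hairpins. The capitals in the microRNA mark its seed, bases 2 to 8. The capitals in the sites mark the 8 bases AAGCACAA, which match the seed and a following A, read on the transcript strand of the annotated 3' UTR. The sites are those of the 2 abundant Robo genes and of the 2 called genes that hold such a match, from GRCm39.
mmu-miR-218-5p: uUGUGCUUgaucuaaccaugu
Robo1, chr16:72842225-72842254, plus strand: tttggttttaaAAGCACAAtcactaaactt
Robo2, chr16:73692235-73692264, minus strand: tatttggtgatAAGCACAAatctctactcc
Plxna4, chr6:32123711-32123740, minus strand: caattcccaggAAGCACAAgctactcacag
Plxnc1, chr10:94628722-94628751, minus strand: agtctccacttAAGCACAAtgatatctaag

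The 8-base match was present in the 3' UTR of 9 of 65 tested guidance genes with an annotated UTR (13.8%), against 723 of 14293 protein-coding genes tested (5.1%). The 9 were *Sema6b*, *Plxna4*, *Plxnb1*, *Plxnc1*, *Epha5*, *Epha7*, *Ephb2*, *Robo1* and *Robo2*. Guidance genes also had longer UTRs, with a median of 1787 bases against 1403 bases, and the part of length in these shares was not tested. By call, it was held by 2 of 13 genes called higher, by 0 of 4 called lower and by 7 of 48 not called. The shorter match to the seed alone was found in 19 of the 65 (29.2%), against 17.6% of coding genes. A match is a run of letters in the main protein-coding transcript and no evidence of a working site.

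A second motif was searched because MOV10 is a helicase: 4 runs of GGG separated by 1 to 7 bases, which can fold into a G-quadruplex in RNA. It was present in the 3' UTR of 18 of the 65 guidance genes (27.7%), against 13.4% of coding genes. It was held by 2 of 13 genes called higher, by 0 of 4 called lower and by 16 of 48 not called. Among all coding genes the shares were 12.7% of genes called higher, 17.1% of genes called lower and 12.8% of genes not called. The part of UTR length and base composition in these shares was not tested.

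Transcript usage asked whether the share of a gene's counts taken by each transcript differed, with the diffSplice test of limma. Of 49 guidance genes with at least 2 tested transcripts, 4 passed (8.16%), against 7.36% of all genes tested, so this share too lay near the background. The assignment of reads to overlapping transcripts is an estimate of the quantifier, and values at exactly 0 may be a failed assignment. *Sema6c* had the smallest adjusted p, 2.49e-05 (diffSplice), and was the only one of the 4 that passed under all 9 alternatives run, with its largest adjusted p of 0.0255 without WT replicate 2. Without factors *Nrp1*, *Plxnb3* and *Sema4a* had adjusted p of 0.101, 0.166 and 0.208 (diffSplice). *Sema4a* also lost its call without any one of the 3 *Mov10* Deletion libraries or WT replicate 3, and *Nrp1* without *Mov10* Deletion replicate 3 or WT replicate 2. *Plxnb3* did not pass this usage test under any alternative. It lost its call without any one of the WT libraries. Without any one of the *Mov10* Deletion libraries, or with a minimum of 1 CPM, it could not be tested. The *Sema6c* transcript *Sema6c-214* had 0, 166 and 0 estimated counts in the *Mov10* Deletion libraries and 420.4, 502 and 799 in the WT libraries. It made up 0, 2.03 and 0% of the counts of the gene in *Mov10* Deletion, against 4.32, 5.98 and 9.17% in WT. The main transcript *Sema6c-201* took 59.6, 59.0 and 57.0% in *Mov10* Deletion and 56.7, 54.0 and 54.2% in WT.

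In *Sema4a*, which was also called for its level, *Sema4a-213* had 282, 540.0 and 528 estimated counts in *Mov10* Deletion and 0, 268 and 241 in WT (gene adjusted p = 0.0218, diffSplice). *Sema4a-214* went the other way, at 1.64, 15.5 and 11.5% of the gene's counts in *Mov10* Deletion and 46.0, 25.8 and 26.4% in WT. Both are annotated as coding. In *Nrp1* (adjusted p = 0.00872, diffSplice) the main transcript held 96.4 ± 0.23% of the counts in *Mov10* Deletion and 96.2 ± 0.22% in WT. The transcripts past the test were minor ones with a retained intron. *Nrp1-202* took 1.62, 1.63 and 1.53% in *Mov10* Deletion and 1.95, 1.94 and 2.16% in WT. *Plxnb3* passed (adjusted p = 0.0193, diffSplice) on few counts, with 29.7, 48.4 and 24.2 estimated counts of *Plxnb3-202* in *Mov10* Deletion and 0, 2.51 and 17.4 in WT.

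**Figure D4:**
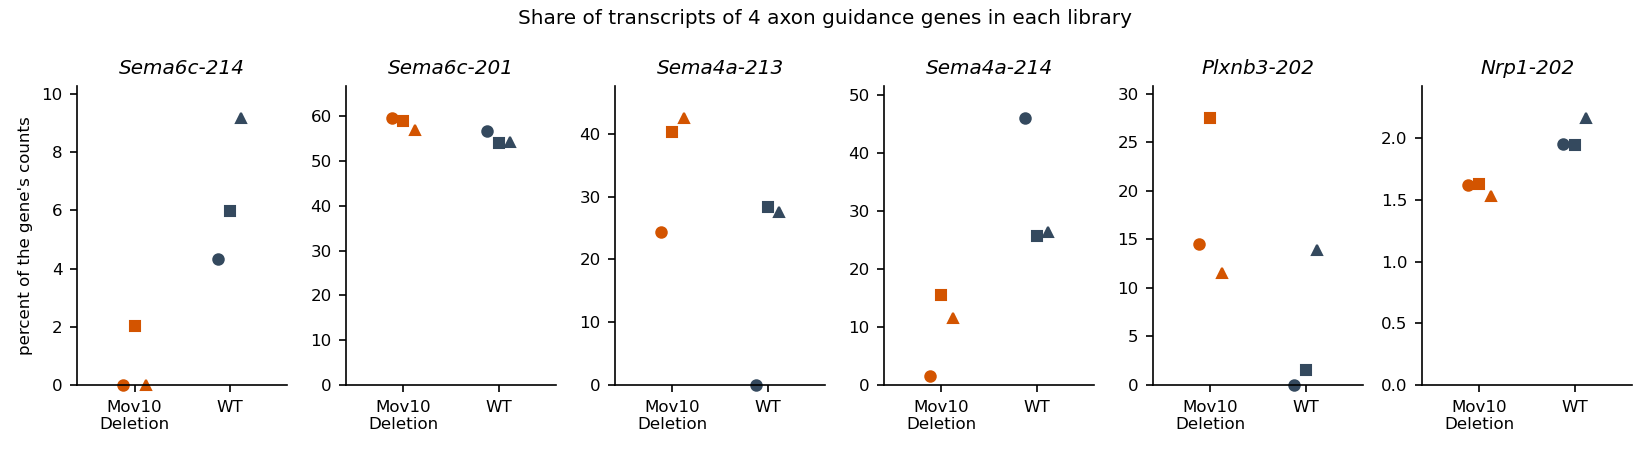
Share of each gene's estimated counts taken by 6 transcripts (percent), in the *Mov10* Deletion libraries (orange, left) and the WT libraries (dark blue, right), with a marker shape for each replicate number. *Sema6c-214* is at 0 in 2 *Mov10* Deletion libraries, and *Sema4a-213* is at 0 in 1 WT library.

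Other genes of the pathway were described from lists. Of 58 further guidance cues and receptors, 10 were called higher and 12 lower (37.9%), against 24.7% of all genes tested and 26.2% of coding genes, with a median log2 fold change of 0.01. Without factors 15 were called (6 higher and 9 lower), against 21% of all genes tested. *Cntn4*, a contactin of axons, was at 4.53, 5.59 and 5.83 CPM in *Mov10* Deletion and 2.78, 2.58 and 2.50 CPM in WT, a log2 fold change of 1.00 (SE 0.10, adjusted p = 0.00146, limma-trend). By p, the adhesion molecule gene *L1cam*, the netrin-G gene *Ntng2* and the receptor phosphatase gene *Ptprd* came next among the genes that rose, with log2 fold changes of 0.27, 0.19 and 0.24. *Cntn1*, another contactin and second to *Cntn4* by fold among the called genes of the list, had a log2 fold change of 0.36 (SE 0.09, adjusted p = 0.0218, limma-trend). The groups of *Ntng2* overlapped. Among the genes that fell, *Vangl2*, a planar polarity protein that takes part in Wnt guidance of commissural axons, was at 109.8, 112 and 120.3 CPM in *Mov10* Deletion and 147, 140.3 and 147 CPM in WT (log2 fold change -0.34, SE 0.04, adjusted p = 0.00288, limma-trend). *Smo*, the Hedgehog transducer, fell by 0.27, *Ptk7*, a Wnt co-receptor, by 0.28, and *Slitrk1* by 0.29 on the log2 scale.

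A list of 86 genes that act in the growth cone downstream of these receptors had 14 called higher and 9 lower, a share of 26.7% near the 24.7% of all genes and 26.2% of coding genes, with a median of -0.01. The highest by p were *Pak3* (log2 fold change 0.28), a kinase that acts below Rac, *Rnd3* (0.24), which binds plexins, *Mical2* (0.20), a relative of the plexin effector MICAL1, and *Srgap1* (0.21), which acts below Robo. The lowest by p were *Adam10*, the protease that sheds ephrins, *Fyn*, a kinase below Dcc and plexins, *Nck2*, an adaptor, and *Pak1*. *Fyn* was at 309, 329 and 311 CPM in *Mov10* Deletion and 361, 359 and 388 CPM in WT (log2 fold change -0.20, SE 0.04, adjusted p = 0.0101, limma-trend).

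The fitted factors of unwanted variation were estimated from the same libraries, and calls depend on them. Without factors 16 of the 66 guidance genes passed, of which 15 were among the 18, against 21% of all genes tested. With a score of sex markers in place of the factors 10 passed, of which 9 were among the 18, and without a filter on low counts 7 passed. Those 7, *Sema3e*, *Plxna4*, *Plxnb2*, *Epha6*, *Epha8*, *Ephb4* and *Dcc*, passed in the same direction under all 19 alternatives run. Of the others, 8 passed under 17 or 18 alternatives. *Unc5d*, *Plxna2* and *Robo4* passed under 11, 10 and 9. Leaving out 1 library moved the count of called guidance genes over a range of 15 to 33, with the highest count without *Mov10* Deletion replicate 2 and the lowest without WT replicate 2.

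**Figure D5:**
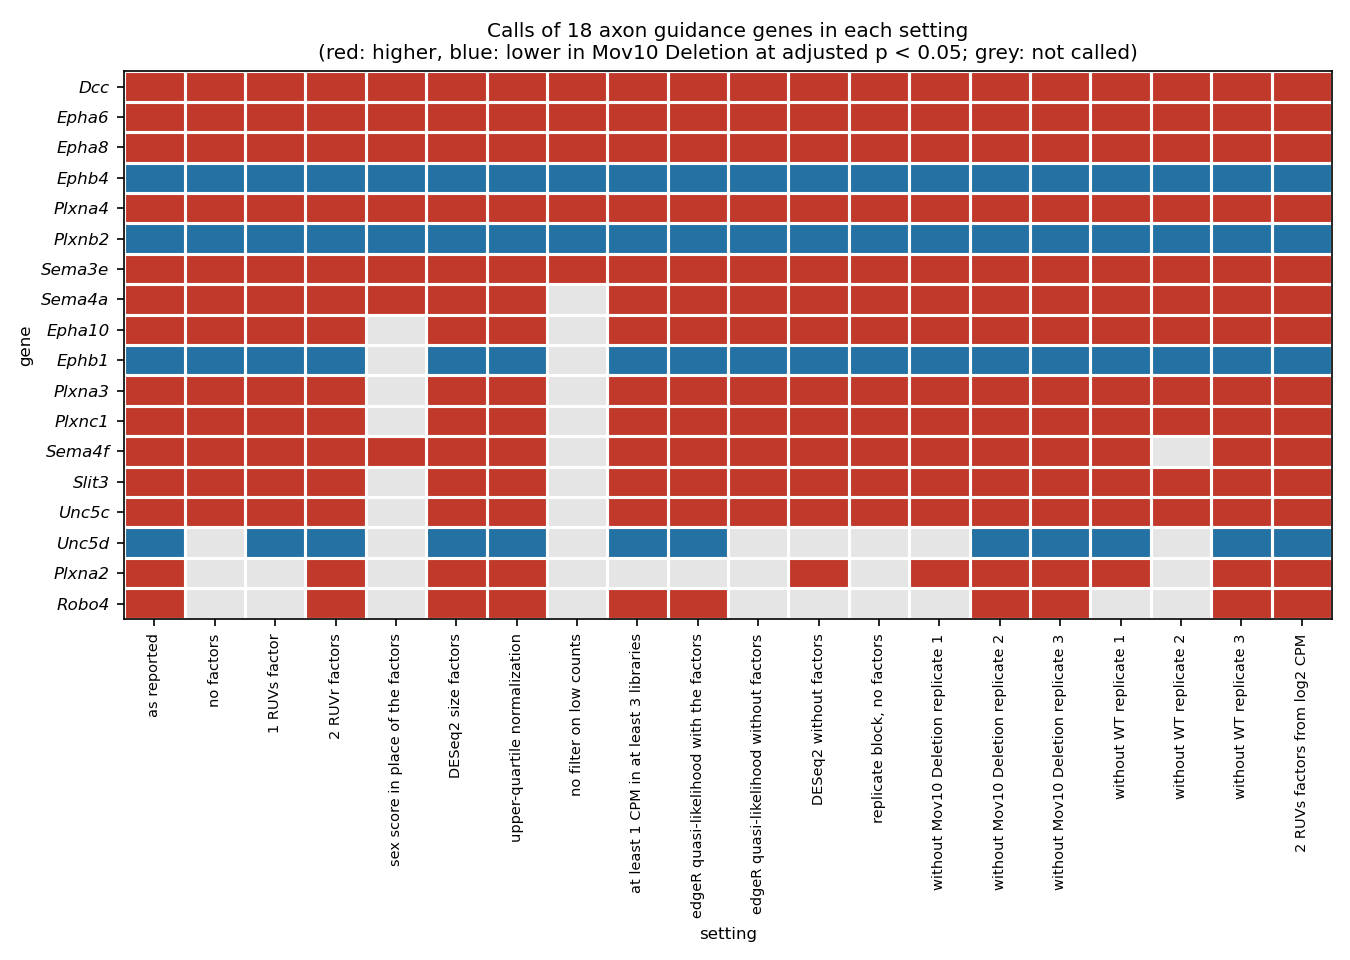
Calls of the 18 guidance genes (rows) as reported and under 19 alternatives (columns), with red for higher and blue for lower in *Mov10* Deletion at an adjusted p under 0.05, and grey for not called. The top 7 genes are coloured in every column, and *Unc5d*, *Plxna2* and *Robo4* are grey in at least 8.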

How the data were processed

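Poly(A)-selected, strand-specific libraries from hippocampi of at least 2 pups each were quantified by the authors with Salmon 1.4.0 (GRCm39, as the submitters' processing notes name it). The deposited files hold the estimated count of each transcript, not normalized, and the authors' TPM, corrected for length and library size. The 139225 transcripts listed were matched by identifier to GENCODE release M39, with 137570 matched, and unmatched ones held 0.589 to 0.600% of the counts. Counts were summed per gene.

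Genes were tested as in the study's methods: filter of 0.25 CPM in 3 libraries, TMM, limma-trend on log2 CPM (prior count 2) with 2 factors of unwanted variation beside genotype, and Benjamini-Hochberg adjustment over 16745 genes (limma 3.58.1, edgeR 4.0.16, DESeq2 1.42.0, R 4.3.3). RUVs was written out in R (controls: every tested gene, replicate sets: the genotypes), since the study names RUVSeq but not the function. The fit left 2 residual and 5.89 prior degrees of freedom. CPM values carry TMM but no correction for factors. The p-values measure the spread between pools that the factors leave. Called means an adjusted p under 0.05. Transcript usage was tested with diffSplice on 10338 genes with the same factors. The gene test was also run on simulated data. Those had fewer changed genes than were called here, and no result above rests on them.

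The 3' UTR was that of the protein-coding transcript with the highest mean TPM, and motifs were searched on its strand. The members and lists were chosen with earlier results of these data known. Named genes were all called members, the highest in TPM and in fold change of each family (mean of at least 1 CPM), members that failed the filter, members past the usage test, and 4 genes each way from the 2 other lists. Further genes were named after their values were known. Alternatives covered the factors, a sex score, normalization, the filter, edgeR and DESeq2, a replicate block and leaving out each library. One, factors from log2 CPM, was added after seeing the data.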

Additional observations from a re-analysis of the deposited data

How the results depend on the processing

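Of 66 guidance genes tested, the count called was 18 (14 higher, 4 lower). It was 10 (8 higher, 2 lower) with a sex score in place of the factors, where 8.15% of all genes passed, and 7 (5 higher, 2 lower) with no filter on low counts, where 3.14% of all genes passed. With 2 RUVr factors it was 26 (18 higher, 8 lower), where 32% of all genes passed. Leaving out each library in turn gave 15 to 33 called, 12 to 21 higher and 3 to 12 lower, while 16.8 to 34.9% of all genes passed. The cause was not tested. Receptors called ranged over 6 to 22 and ligands over 1 to 11 across the 19 alternatives. With a replicate block and no factors 16 passed (12 higher, 4 lower). Same-numbered libraries had correlations of 0.01, -0.07 and 0.04 between their deviations, and differently numbered ones had -0.095 to 0.103. No pairing by number was seen, but this comparison cannot exclude one. Usage calls numbered 4, against 2 with no factors, 2 with the replicate block, and 2 to 7 leaving out a library.

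Fold changes that turned sign were close to 0. *Sema3c* was at 0.00066 without factors, with 2 RUVr factors and with the replicate block, at 0.0109 with upper-quartile normalization, 0.0150 with a minimum of 1 CPM, 0.00611 in edgeR and 0.00436 in DESeq2 without factors, and at -0.01 as reported. Leaving out 1 library gave -0.0796 to 0.0841, with 0.0234 without WT replicate 2. *Ephb2* was at 0.0278 with the sex score and at -0.0607 to 0.0103 leaving out 1 library, and *Epha4* at -0.0937 to 0.00659. Of the genes tested, *Robo3* and *Epha10* rest on few counts, 69 to 137 and 84 to 154 in a library.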

Other observations

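Some of the guidance genes are neighbours on the genome. Of 13 pairs of neighbouring tested guidance genes, the widest 868 kb apart, 6 had log2 fold changes of the same sign. Among the 6 were the 4 pairs closer than 60 kb, of which 3 are pairs of the same ephrin genes. That count depends on the bound, since the next pair by distance, *Sema3b* and *Sema3f*, had opposite signs. *Epha8* (log2 fold change 0.42) lies 93.4 kb from *Ephb2* (-0.02) on chromosome 4. *Sema3e* (0.46) lies 422 kb from *Sema3a* (-0.12) on chromosome 5, and *Sema3b* (0.35) lies 72.2 kb from *Sema3f* (-0.08) on chromosome 9. *Robo3* and *Robo4*, 0.554 kb apart, had 0.33 and 0.29. The ephrin genes *Efna1*, *Efna3* and *Efna4*, within 52.2 kb on chromosome 3, had -0.25, -0.11 and -0.20. *Plxna3* and *Plxnb3*, 557 kb apart on chromosome X, had 0.24 and 0.50, and *Robo1* and *Robo2*, 844 kb apart on chromosome 16, had 0.15 and 0.09.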
